A study of Mus musculus with 9 samples.

Results

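The 8 genes described here belong to the mouse OAS family, namely Oas1a, Oas1b, Oas1c, Oas1g, Oas2, Oas3, Oasl1 and Oasl2, and they were taken by symbol from a table of 56953 genes, where all 8 passed the filter for testing, a TPM of 1 in 3 libraries. Expression was measured in 9 polyA RNA sequencing libraries of cardiac fibroblasts grown from the hearts of adult male wild-type C57BL/6N mice and collected 72 h after infection with an adenovirus. Ad-JP2 carried junctophilin-2, a protein that ties the endoplasmic reticulum to the plasma membrane, Ad-shJP2 carried a short hairpin RNA against it, and Ad-GFP carried green fluorescent protein, with 3 libraries for each virus. All 9 libraries came from virus-infected cells, and no uninfected culture was analysed here. The values are the authors' TPM, a level per length of transcript scaled to the same total in each library.

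OAS enzymes bind double-stranded RNA, a sign of viral infection, and then join ATP into short oligoadenylates with an unusual backbone linkage. These oligoadenylates act as a second messenger that switches on RNA decay in the infected cell. The OAS genes are classic interferon-stimulated genes, because interferon receptors activate transcription factors, among them STAT2 and IRF9, that act at the interferon-stimulated response element (ISRE) in their promoters. The OAS-like proteins carry ubiquitin-like repeats, and some family members lack the synthetase activity.

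In the GENCODE vM21 annotation of GRCm38, all 8 genes lay on chromosome 5. Oas2, Oas3 and the 4 Oas1 genes formed a cluster of 6 members spanning 177189 bases. Oasl2 and Oasl1 stood 11006 bases apart as a pair, 5792418 bases away from that cluster. Oas1b and Oas1c were arranged head to head, with 5′ ends 121 bases apart. The authors used GRCm39, so no gene coordinates are carried over to their table. RefSeq promoter windows of GRCm38.p6, 250 bases before to 50 bases after the start, were at hand for 6 of the 8 members, all but Oas1b and Oas2.

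The ISRE core was searched on both strands as GAAA, any pair of bases, and GAAA again. It was found in 4 of the 6 windows (Oas1a, Oas1c, Oas1g and Oas3) and in 3.44% of the 32851 windows of the whole RefSeq table. The 120 bases before the start are printed for these 4 genes and for Oasl1, the member with the largest difference between viruses. The lines read 5′ to 3′ on the gene's own strand, and capitals mark the bases that match the ISRE core on either strand.
Oas1a (GRCm38.p6, chr5:120907526-120907645, minus strand): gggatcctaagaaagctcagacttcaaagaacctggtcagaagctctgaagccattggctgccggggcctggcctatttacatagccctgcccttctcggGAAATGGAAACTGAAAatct
Oas1g (GRCm38.p6, chr5:120887614-120887733, minus strand): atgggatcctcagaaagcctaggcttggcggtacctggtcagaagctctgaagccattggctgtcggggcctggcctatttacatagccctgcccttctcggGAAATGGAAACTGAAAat
Oas1c, which is also the stretch between the Oas1c and Oas1b starts (GRCm38.p6, chr5:120812515-120812634, minus strand): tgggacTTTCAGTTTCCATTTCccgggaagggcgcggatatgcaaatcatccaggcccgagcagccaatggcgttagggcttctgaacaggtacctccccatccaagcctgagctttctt
Oas3 (GRCm38.p6, chr5:120777660-120777779, minus strand): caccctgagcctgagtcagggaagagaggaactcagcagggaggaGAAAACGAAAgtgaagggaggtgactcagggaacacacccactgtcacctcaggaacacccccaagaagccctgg
Oasl1 (GRCm38.p6, chr5:114923120-114923239, plus strand): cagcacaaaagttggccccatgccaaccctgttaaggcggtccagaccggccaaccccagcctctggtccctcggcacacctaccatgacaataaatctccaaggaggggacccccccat

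Oas1a and Oas1g shared the run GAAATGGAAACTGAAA, which holds 2 ISRE core matches that overlap by 4 bases. It began 20 bases before the Oas1a start and 18 bases before the Oas1g start. The same 16 bases stood in the stretch between Oas1c and Oas1b, where they read in the sense of Oas1b and began 22 bases before its annotated start. The Oas3 window held a single match, GAAAACGAAA, 75 bases before the start. These letters were not in the Oasl1 and Oasl2 windows. The gamma-activated site, searched as TTCNNNGAA, which reads the same on both strands, was found in the Oas1a window alone among the 6, against 8.3% of all windows. The Oas1a and Oas1g windows were identical at 85.3% of aligned positions, and the other 14 pairs of windows at 45.9% to 51.6%.

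Jph2 itself was read first as a check on the viruses. It averaged 688 ± 49.9 TPM in Ad-JP2, 120 ± 3.09 TPM in Ad-shJP2 and 129 ± 2.44 TPM in Ad-GFP (SD, n = 3 each). The difference between Ad-shJP2 and Ad-GFP was -0.11 on the log2(TPM + 1) scale and missed the threshold (limma, adjusted p = 0.0724), although all 3 Ad-shJP2 libraries lay below every Ad-GFP library. It was called under quantile normalization (-0.13, adjusted p = 0.0243), with the 2 compared groups alone (adjusted p = 0.0165) and without Ad-JP2 replicate 1 or 3 (adjusted p = 0.0297 and 0.018), and it turned to 0.04 after a GC content and length correction. Ad-shJP2 therefore means the libraries labelled so. Depth, estimated from the steps of the TPM values, was 36.9 to 40.9 M reads in Ad-JP2, 21.3 to 33.3 M in Ad-shJP2 and 40.2 to 45.8 M in Ad-GFP. These depths are rough, since outside Ad-GFP replicate 3 only 42% to 63.8% of low genes came within 0.1 of whole reads. Nothing in the labels states that libraries of a group were grown as independent cultures, and the tests then measure the spread between these libraries, which can be technical. Differences between groups were tested with limma over 14215 genes, and a Benjamini-Hochberg adjusted p under 0.05 is a call.

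With the hairpin virus, every one of the 8 OAS genes was higher than with the GFP virus. Oasl1 stood 40.4-fold higher, Oas3 11.5-fold, Oas2 8.26-fold, and Oas1c, at 1.92-fold, differed least. All 8 were called higher, where 21.8% of the genes tested were called higher, 37.7% lower and 59.4% in either direction. The median log2 difference of the 8 was 1.91, against -0.12 over all genes tested. Oas1b, Oas2, Oas3 and Oasl1 met the filter only with the help of their Ad-shJP2 libraries, so for these 4 a difference was built into being tested. Their adjusted p and ranks in Ad-shJP2 are descriptions, as are the count and the median. With the junctophilin-2 virus, 3 of the 8 (Oas1a, Oas1g and Oasl2) were called higher than with the GFP virus, none lower and 5 not called, where 13.4% of all genes were called higher, 1.64% lower and 15% in either direction. The median of the 8 in that comparison was 0.09, against 0.01 over all genes. Both comparisons use the same Ad-GFP libraries. Set directly against each other, all 8 genes were lower in Ad-JP2 than in Ad-shJP2, with a median of -1.63, where 24.1% of all genes were called lower, 40.3% higher and 64.4% in either direction.

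**Figure D1:**
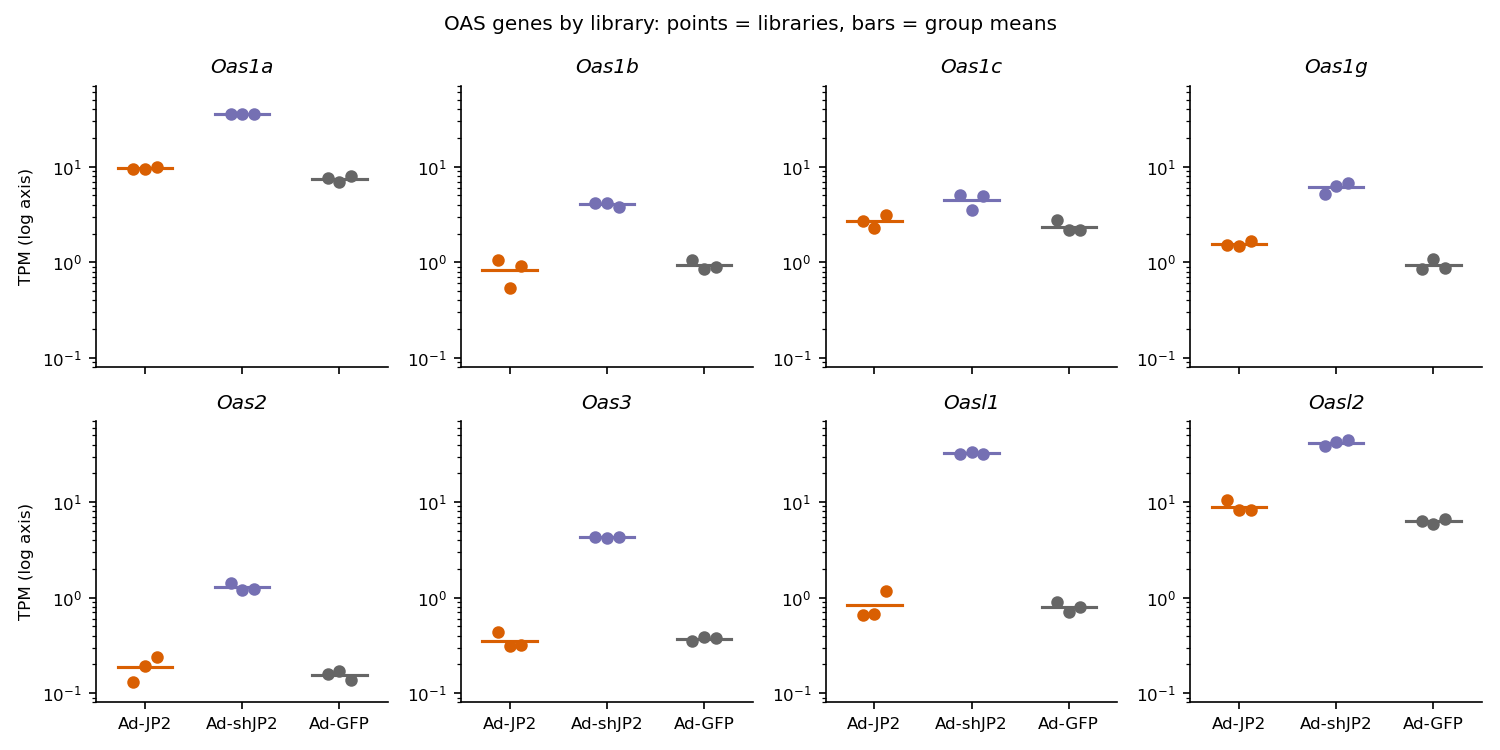
TPM of the 8 OAS genes in each library on a log axis, with points for libraries and a bar for the mean of each group. In every panel the 3 Ad-shJP2 points lie above all others, where 65.3% of the genes tested had no overlap between Ad-shJP2 and Ad-GFP in one direction or the other.

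Oas1a is a catalytically active synthetase and was the most abundant OAS1-type gene in all 3 groups. Its levels were 9.55, 9.37 and 10.0 TPM in Ad-JP2, 35.8, 35.9 and 35.8 TPM in Ad-shJP2, and 7.64, 6.90 and 7.97 TPM in Ad-GFP. No library of one group reached into the range of another. Between Ad-JP2 and Ad-GFP, 32.2% of the genes tested were separate in this way, in one direction or the other. The log2 difference from Ad-GFP was 0.33 (SE 0.06, limma adjusted p = 0.00464) in Ad-JP2 and 2.12 (SE 0.06, adjusted p = 1.01e-08) in Ad-shJP2, or 1.29-fold and 4.77-fold as ratios of mean TPM. Under quantile normalization, the rise in Ad-JP2 was 0.19 and no longer called (adjusted p = 0.0583).

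Oas1g, the close copy of Oas1a and also an active synthetase, had 1.52, 1.49 and 1.65 TPM in Ad-JP2, 5.24, 6.30 and 6.78 TPM in Ad-shJP2, and 0.851, 1.08 and 0.868 TPM in Ad-GFP. The 3 groups did not overlap here either, where 32.2% of the genes tested had no overlap between Ad-JP2 and Ad-GFP. It was 6.55-fold higher in Ad-shJP2 than in Ad-GFP (log2 1.88, SE 0.10, limma adjusted p = 6.57e-07) and 1.67-fold higher in Ad-JP2 (log2 0.40, SE 0.10, adjusted p = 0.0298). The call in Ad-JP2 was lost when any 1 of 5 libraries was left out (Ad-GFP replicates 1 and 3 and each Ad-JP2 library), with adjusted p between 0.0696 and 0.0991. It was also lost with no filter on low values (adjusted p = 0.085) and under quantile normalization (0.30, adjusted p = 0.0836). Of the 31-base words of the longest annotated Oas1a transcript, 68.7% also occurred in Oas1g transcripts, and of the 75-base words 47.6% did. How the authors' counting divided such reads between the pair is not given in the sources used here, so the 2 levels are uncertain apart from each other.

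Oas1b is known in mice for its role in resistance to flaviviruses, and the annotation lists it as a polymorphic pseudogene, since common laboratory strains carry a truncated form. It stood at 1.05, 0.535 and 0.909 TPM in Ad-JP2, 4.18, 4.15 and 3.83 TPM in Ad-shJP2, and 1.05, 0.844 and 0.896 TPM in Ad-GFP. The Ad-shJP2 libraries stood clear of the other 2 groups, which overlapped. The log2 difference was 1.39 in Ad-shJP2 (SE 0.12, limma adjusted p = 1.04e-05) and -0.09 in Ad-JP2 (adjusted p = 0.737, 95% interval -0.36 to 0.19). Oas1b met the filter only with the help of its Ad-shJP2 libraries, so its Ad-shJP2 values are descriptions.

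Oas1c, whose start faces that of Oas1b, had 2.69, 2.29 and 3.14 TPM in Ad-JP2, 5.04, 3.55 and 4.96 TPM in Ad-shJP2, and 2.74, 2.16 and 2.17 TPM in Ad-GFP. The lowest Ad-shJP2 library, at 3.55 TPM, was still above the highest of the other groups. It was 1.92-fold higher in Ad-shJP2 than in Ad-GFP (log2 0.71, SE 0.14, limma adjusted p = 0.00196) and was not called in Ad-JP2 (log2 0.14, adjusted p = 0.607, 95% interval -0.17 to 0.46). The head-to-head neighbours Oas1b and Oas1c, with the shared 16-base run between their starts, thus differed from Ad-GFP by 1.39 (95% interval 1.12 to 1.66) and 0.71 (95% interval 0.39 to 1.03) with the hairpin virus. The log2(TPM + 1) scale shrinks the lower gene, Oas1b, more. As ratios of mean TPM, Oas1b was 4.36-fold and Oas1c 1.92-fold higher. Of the 31-base words of the longest annotated Oas1c transcript, 26.8% occurred in other genes. Of the remaining Oas1 genes in the table, Oas1e, Oas1f and Oas1h were listed at 0 in all 9 libraries and Oas1d at no more than 0.04 TPM.

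Oas2 and Oas3, the larger synthetases, are built of repeated OAS units. Oas2 was the least abundant member in every group, with 0.132, 0.193 and 0.241 TPM in Ad-JP2, 1.41, 1.20 and 1.23 TPM in Ad-shJP2, and 0.158, 0.17 and 0.137 TPM in Ad-GFP. These levels stood for a roughly estimated 14.2 to 26.6 reads per library in Ad-JP2, 87.4 to 117 in Ad-shJP2 and 15.8 to 19.7 in Ad-GFP. Oas3 had 0.432, 0.308 and 0.316 TPM in Ad-JP2, 4.26, 4.25 and 4.32 TPM in Ad-shJP2, and 0.348, 0.388 and 0.38 TPM in Ad-GFP. For both genes Ad-JP2 and Ad-GFP overlapped, and the Ad-shJP2 libraries stood far above either group.

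Against Ad-GFP, the log2 difference in Ad-shJP2 was 0.98 for Oas2 (SE 0.10, limma adjusted p = 3.11e-05). For Oas3 it was 1.94 (SE 0.09, adjusted p = 1.75e-07). Because these genes lie below 1 TPM outside Ad-shJP2, the added count of 1 shrinks their values, and with a pseudocount of 0.1 they were 2.44 and 3.21. In Ad-JP2 neither was called, with 0.04 for Oas2 (adjusted p = 0.861, 95% interval -0.19 to 0.27) and -0.02 for Oas3 (adjusted p = 0.919, 95% interval -0.22 to 0.18). Neither reached 1 TPM in any library outside Ad-shJP2, so both met the filter only through that group, and their Ad-shJP2 values are descriptions.

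Oasl1, a mouse OAS-like protein without synthetase activity that holds down translation of Irf7 mRNA, changed most. It had 0.651, 0.681 and 1.16 TPM in Ad-JP2, 31.8, 33.5 and 32.2 TPM in Ad-shJP2, and 0.899, 0.714 and 0.802 TPM in Ad-GFP. Ad-JP2 and Ad-GFP overlapped around 1 TPM, with Ad-shJP2 far above both. The log2 difference in Ad-shJP2 was 4.22 (SE 0.11, limma adjusted p = 7.84e-09), which ranked 2 from the top among 14215 genes. In Ad-JP2 it was 0.01 (adjusted p = 0.969, 95% interval -0.24 to 0.26). Oasl1 met the filter only with the help of its Ad-shJP2 libraries, so its Ad-shJP2 values and rank are descriptions. The antisense gene Gm13822, which overlaps Oasl1, was listed at 0 to 0.177 TPM in Ad-JP2, 0.143 to 1.36 TPM in Ad-shJP2 and 0 in Ad-GFP. The libraries were stranded, but whether counting used the strand is not given in the sources used here.

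Oasl2, an OAS-like protein that in mice has kept the synthetase activity, had 10.4, 8.27 and 8.17 TPM in Ad-JP2, 38.4, 42.1 and 44.6 TPM in Ad-shJP2, and 6.38, 5.96 and 6.71 TPM in Ad-GFP. All 3 groups were separate, in the order Ad-shJP2, Ad-JP2, Ad-GFP from high to low. Ad-JP2 and Ad-GFP were separate for 3 of the 8 members, near the share of 32.2% over all genes tested. It rose 6.57-fold in Ad-shJP2 (log2 2.54, SE 0.10, limma adjusted p = 6.08e-08) and 1.41-fold in Ad-JP2 (log2 0.43, SE 0.10, adjusted p = 0.0144). The rise in Ad-JP2 was not called without Ad-GFP replicate 2 (adjusted p = 0.0579) or under quantile normalization (0.29, adjusted p = 0.0647). In the order of all tested genes from the highest log2(TPM + 1) difference in Ad-shJP2, a scale that ranks low genes such as Oas2 down, Oasl2 came at 13, Oas1a at 22, Oas3 at 31, Oas1g at 37, Oas1b at 93, Oas2 at 256 and Oas1c at 586. In Ad-JP2 the highest of the 8 was Oasl2, at 1598.

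The direct comparison of Ad-JP2 with Ad-shJP2 sets these viruses against each other. Here too, Oas1b, Oas2, Oas3 and Oasl1 met the filter only with the help of their Ad-shJP2 libraries. For them a difference was built into being tested, and their values are descriptions. On the log2(TPM + 1) scale, Oasl1 differed by -4.20 (SE 0.11, limma adjusted p = 3.83e-09), Oasl2 by -2.11, Oas3 by -1.97, Oas1a by -1.79, Oas1b by -1.48, Oas1g by -1.47, Oas2 by -0.94 (adjusted p = 3.08e-05) and Oas1c by -0.57 (adjusted p = 0.00593). This scale shrinks the differences of low genes, and the ratios of mean TPM stood in another order. The Ad-shJP2 mean was 39.1 times the Ad-JP2 mean for Oasl1, 12.2 times for Oas3 and 6.79 times for Oas2, against 4.65 times for Oasl2 and 3.71 times for Oas1a, and Oas1c had the smallest ratio at 1.67. With a pseudocount of 0.1, Oas3 was -3.29 and Oas2 -2.27. Each gene was lower in all 3 Ad-JP2 libraries than in any Ad-shJP2 library, and 67.1% of the genes tested had such separate groups in one direction or the other.

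**Figure D2:**
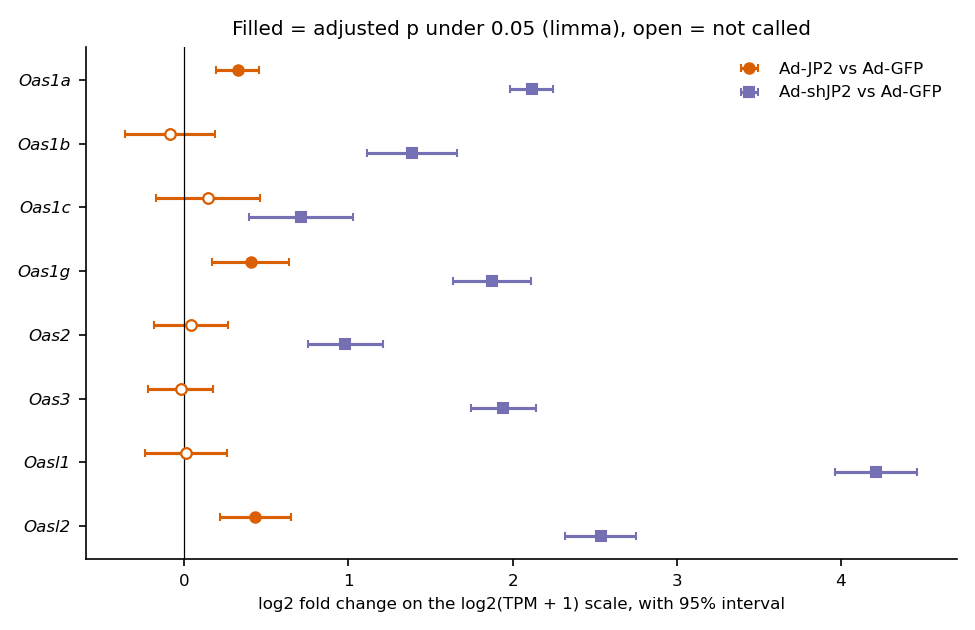
Log2 fold change of each OAS gene against Ad-GFP on the log2(TPM + 1) scale, with circles for Ad-JP2, squares for Ad-shJP2 and bars for 95% intervals. Filled symbols passed an adjusted p of 0.05, as all 8 OAS genes did in Ad-shJP2 and 3 did in Ad-JP2.

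Summed over the 8 genes, the family reached 25.1 ± 1.72 TPM in Ad-JP2, 130 ± 3.8 TPM in Ad-shJP2 and 19.4 ± 1.04 TPM in Ad-GFP (SD, n = 3 each). The Ad-shJP2 mean was 6.71 times the Ad-GFP mean, and the Ad-JP2 mean 1.29 times. The sums ran from 23.1 to 26.5 TPM in Ad-JP2, 126 to 134 TPM in Ad-shJP2 and 18.2 to 20.1 TPM in Ad-GFP, with no overlap between groups.

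The make-up of the family differed as well. Oasl1 supplied 3.32% of the sum in Ad-JP2, 25.0% in Ad-shJP2 and 4.14% in Ad-GFP. Oas1a supplied 38.6% in Ad-JP2, 27.5% in Ad-shJP2 and 38.7% in Ad-GFP, and Oas1c 10.8%, 3.47% and 12.1% in the same order of groups. The share of Oasl2 was 35.7% in Ad-JP2, 32.0% in Ad-shJP2 and 32.7% in Ad-GFP, and its ranges overlapped between groups. By level per length, Oas1a and Oasl2 led in Ad-JP2 and overlapped each other, followed by Oas1c, Oas1g, the overlapping pair Oasl1 and Oas1b, Oas3 and Oas2. In Ad-shJP2 the order was Oasl2, Oas1a, Oasl1, Oas1g, then Oas1c, Oas3 and Oas1b, where the wide range of Oas1c overlapped both others, and Oas2. In Ad-GFP it was Oas1a, Oasl2, Oas1c, then Oas1g, Oas1b and Oasl1 with overlapping neighbours, Oas3 and Oas2.

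**Figure D3:**
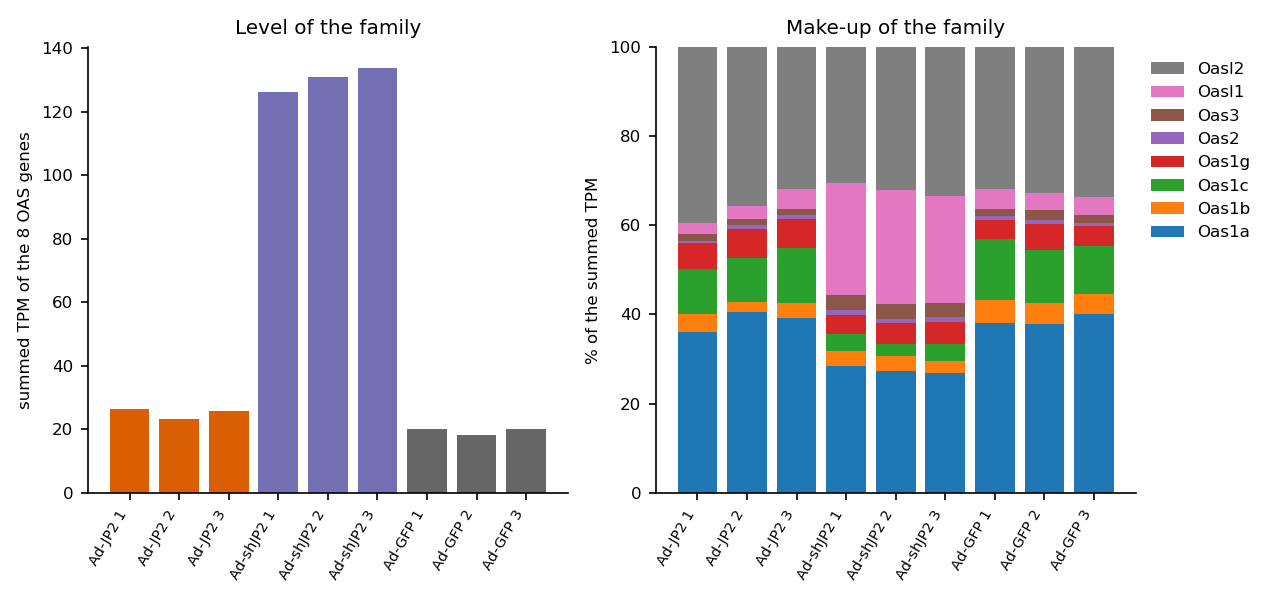
Left, summed TPM of the 8 OAS genes in each library. Right, the share of each gene in that sum, in percent, where the Oasl1 band averages 25.0% in the Ad-shJP2 libraries, against 3.32% in Ad-JP2 and 4.14% in Ad-GFP.

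The OAS genes have a GC content of 49.4% to 56.3%, against a median of 50% over the genes tested. After each gene's value was corrected for GC content and length, no OAS gene lost or gained a call. Neither protein nor oligoadenylate was measured.

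The oligoadenylates can be degraded by phosphodiesterases, of which Pde12 (known for this in human cells), Akap7 and Enpp1 were listed. None of the 3 was called in Ad-JP2, where 13.4% of all genes tested were called higher and 1.64% lower. In Ad-shJP2 2 fell and none rose, where 37.7% of all genes tested were called lower and 21.8% higher. Akap7 averaged 10.4 TPM in Ad-JP2, 2.32 TPM in Ad-shJP2 and 8.16 TPM in Ad-GFP, with a log2 difference from Ad-GFP of -1.49 in Ad-shJP2 (limma adjusted p = 6.13e-05). Pde12 differed by -0.21 in Ad-shJP2 (adjusted p = 0.0257), and by -0.14 with median-of-ratios scaling, where it was not called (adjusted p = 0.0979). The 3 genes have a median GC content of 41.9%. After the GC and length correction, Akap7 kept its Ad-shJP2 call at -1.17. Pde12 then stood at 0.56 in Ad-shJP2 (adjusted p = 9.71e-05), and it was 0.02 under quantile normalization. In Ad-JP2, where Pde12 differed by 0.23 (adjusted p = 0.0566), it was called lower after the correction (-0.32, adjusted p = 0.0151) and higher with median-of-ratios scaling (0.23, adjusted p = 0.0497). Enpp1, which differed by 0.04 in Ad-shJP2, was called higher after the correction at 0.38.

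Other sensors of nucleic acids, of which 9 of the 10 listed were tested, did not all follow the OAS genes. In Ad-JP2, 4 rose and none fell, where 13.4% of all genes tested were called higher and 1.64% lower. They were led by Ifih1 (log2 1.08), the sensor MDA5, Zbp1 (0.82), a sensor of Z-form nucleic acids, and Eif2ak2 (0.79), the kinase PKR that stops translation. In Ad-shJP2, 5 rose and 1 fell, where 21.8% of all genes tested were called higher and 37.7% lower. The rises were led by Zbp1 (2.54), Dhx58 (1.98), the RIG-I-like protein LGP2, and Adar (0.89), an RNA-editing enzyme. The gene that fell was Eif2ak2, by 0.53 (limma adjusted p = 0.00437), with means of 5.00 TPM in Ad-JP2, 1.43 TPM in Ad-shJP2 and 2.48 TPM in Ad-GFP. That fall was not called after the GC and length correction (-0.15, adjusted p = 0.297) or under quantile normalization (-0.30, adjusted p = 0.0604). After the correction, 6 of the 9 tested sensors were called higher in Ad-shJP2 and none lower. Among them was Rigi, which moved from -0.08 to 0.30 (limma adjusted p = 0.000811).

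Of 6 listed genes of interferon receptors and their signalling, 3 rose in Ad-JP2 and none fell, namely Jak1 (log2 0.34), Stat2 (0.22) and Irf9 (0.20). Over the whole tested set, that comparison had 13.4% of genes called higher and 1.64% lower. Stat2 and Irf9 were not called there under quantile normalization, at 0.09 and 0.11, nor was Stat2 after the GC and length correction, at 0.15. In Ad-shJP2 the transcription factors Stat2 and Irf9 rose by 1.90 and 1.10. In the same libraries the kinase Jak1 fell by 1.36 and the receptor chain Ifnar1 by 0.58. That made 2 of the 6 called lower and 2 higher, against 37.7% and 21.8% of the genes tested. Stat2 averaged 8.92 ± 0.535 TPM in Ad-JP2, 30.7 ± 1.86 TPM in Ad-shJP2 and 7.48 ± 0.216 TPM in Ad-GFP (SD, n = 3 each).

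Among the interferon ligands and interferon regulatory factors, Ifna2, Ifna4, Ifnl2 and Ifnl3 were listed at 0 in all 9 libraries. Ifnb1, the gene of interferon beta, was listed at 0 in 8 libraries and at 0.463 TPM in Ad-shJP2 replicate 3. The 4 genes of this list that were tested were Irf1, Irf3, Irf5 and Irf7, and all 4 rose in Ad-shJP2, Irf7 by 2.86. Irf7, whose protein drives interferon alpha genes, was the single one called in Ad-JP2 (log2 0.52, limma adjusted p = 0.00107). Of 5 negative regulators of interferon signalling, Usp18 rose by 2.98, Socs1 by 0.67 and Socs3 by 0.50 in Ad-shJP2, where the phosphatase Ptpn2 fell by 1.11. In Ad-JP2, Usp18 (0.53) and Ptpn2 (0.44) were called higher, the second of them not under quantile, median-of-ratios or GC-corrected values. For both lists, the shares over all genes tested were 21.8% called higher and 37.7% lower in Ad-shJP2, and 13.4% and 1.64% in Ad-JP2.

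**Figure D4:**
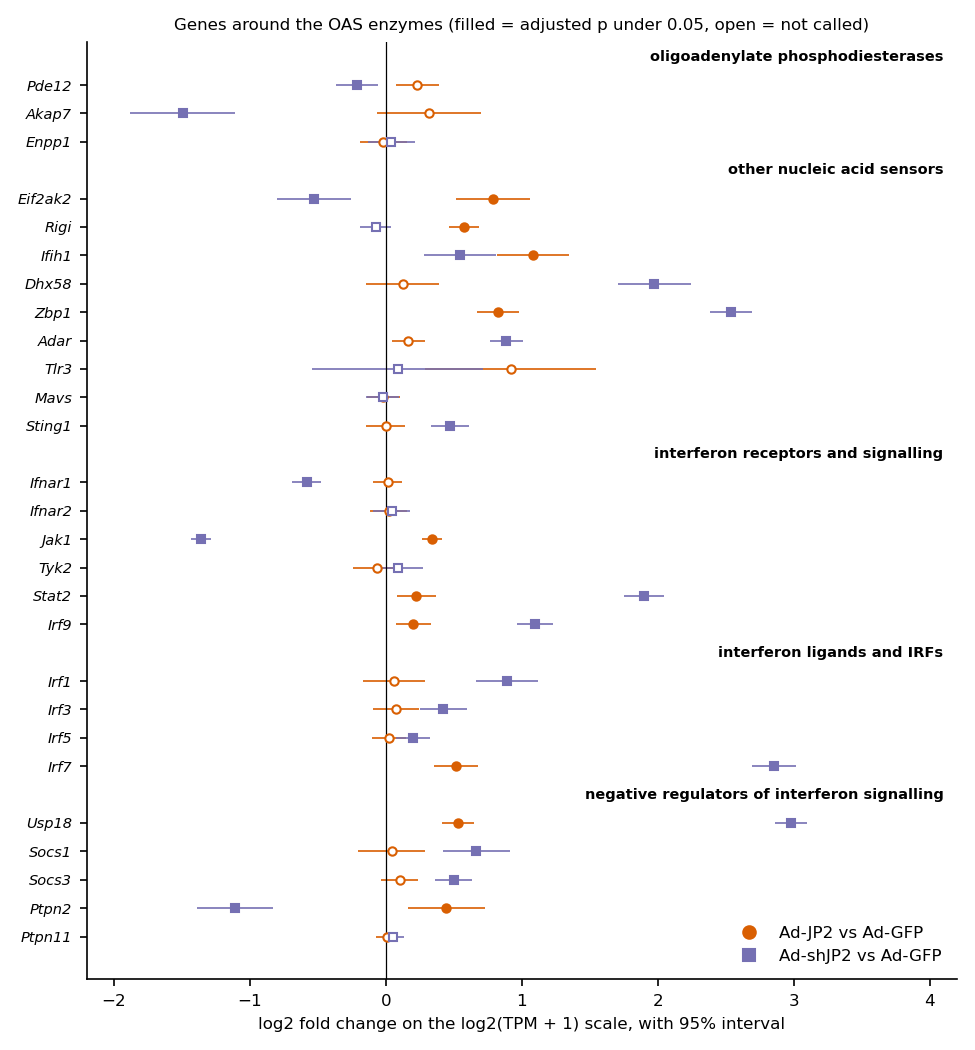
Log2 fold change against Ad-GFP, with 95% intervals, of genes around the OAS enzymes, grouped by role, with circles for Ad-JP2, squares for Ad-shJP2 and filled symbols for an adjusted p under 0.05. Squares for Irf7, Usp18 and Zbp1 lie beyond 2.5, while those of Akap7, Jak1 and Ptpn2 lie left of 0.

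Likeness of pattern was measured as the root mean square distance between centred log2(TPM + 1) values over the 9 libraries, among 11745 genes, and the 3 nearest genes of each member were listed. For Oas1a these were Apol9a (distance 0.0869), Apol9b and Ifit3. For Oas1g they were Ifit3b (0.115), Stat2 and Snhg1, and for Oasl2 Rtp4 (0.165), Irf7 and Apol9b. Nearest to Oasl1 were the chemokine genes Cxcl10 (0.185) and Ccl5 (0.595), then the ubiquitin-like modifier Isg15 (0.735). Cxcl10 averaged 1.20 TPM in Ad-JP2, 37.2 TPM in Ad-shJP2 and 0.791 TPM in Ad-GFP. For Oas1b they were Tcfl5, Cntfr and Sord, for Oas1c Meaf6, Ormdl1 and Mtmr14, for Oas2 Itprip, Odc1 and Itga5, and for Oas3 Ccnf, Mybl2 and S1pr3. On this scale the weakly expressed Oas2 and Oas3 are matched to abundant genes with smaller fold ratios. Itprip, for example, averaged 37.8 TPM in Ad-JP2, 76.7 TPM in Ad-shJP2 and 37.5 TPM in Ad-GFP.

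Markers of other cells were read beside the OAS genes, since the libraries are bulk and a change in the number of cells of a type cannot be told apart from a change in RNA per cell. The 8 fibroblast markers summed to 3520 to 3675 TPM in Ad-JP2, 1994 to 2059 TPM in Ad-shJP2 and 3380 to 3441 TPM in Ad-GFP, and all 8 were present. Most of each sum came from the collagen genes Col1a1 and Col1a2. In Ad-shJP2, 7 of the 8 markers fell and 1 rose, where 37.7% of all genes tested were called lower and 21.8% higher. After the GC and length correction 7 were still called lower and 1 higher, but the falls were smaller for all except Tcf21. Ddr2 moved from -0.56 to -0.11 and Pdgfra from -0.94 to -0.50, while Tcf21 stood at -1.39 and then -1.40. Of 15 macrophage and leukocyte markers, 12 were tested. Their summed level was 2530 to 2573 TPM in Ad-JP2, 3204 to 3253 TPM in Ad-shJP2 and 2748 to 2784 TPM in Ad-GFP, most of it from the myeloid lysozyme gene Lyz2, while the lymphocyte genes Cd3e and Nkg7 were at 0 in all 9 libraries. In Ad-shJP2, 7 macrophage and leukocyte markers rose and 3 fell, against the same all-gene shares. In Ad-JP2 2 rose and 2 fell, where 13.4% of all genes tested were called higher and 1.64% lower. The pan-leukocyte gene Ptprc, called higher in Ad-JP2, stood at 1.80 to 2.20 TPM in Ad-JP2, 0.177 to 0.309 TPM in Ad-shJP2 and 0.537 to 0.669 TPM in Ad-GFP. It met the filter only through its Ad-JP2 libraries, so a difference was built into being tested. Its lower level in Ad-shJP2 turned to a log2 difference of 0.33 after the GC and length correction. Mrc1 (log2 -1.62) and Itgam (-0.72) also fell in Ad-shJP2, and both stayed called lower after the correction, at -0.98 and -0.34. Of the 12 tested markers, 7 were then called higher and 2 lower in Ad-shJP2. Endothelial markers summed to 35.9 to 41.1 TPM in Ad-JP2, 30.1 to 40.7 TPM in Ad-shJP2 and 36.7 to 38.8 TPM in Ad-GFP, and cardiomyocyte markers to 26.6 to 32.6 TPM, 20.4 to 22.9 TPM and 31.4 to 33.3 TPM in the same order of groups. The part of these cells in the OAS differences was not tested.

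**Figure D5:**
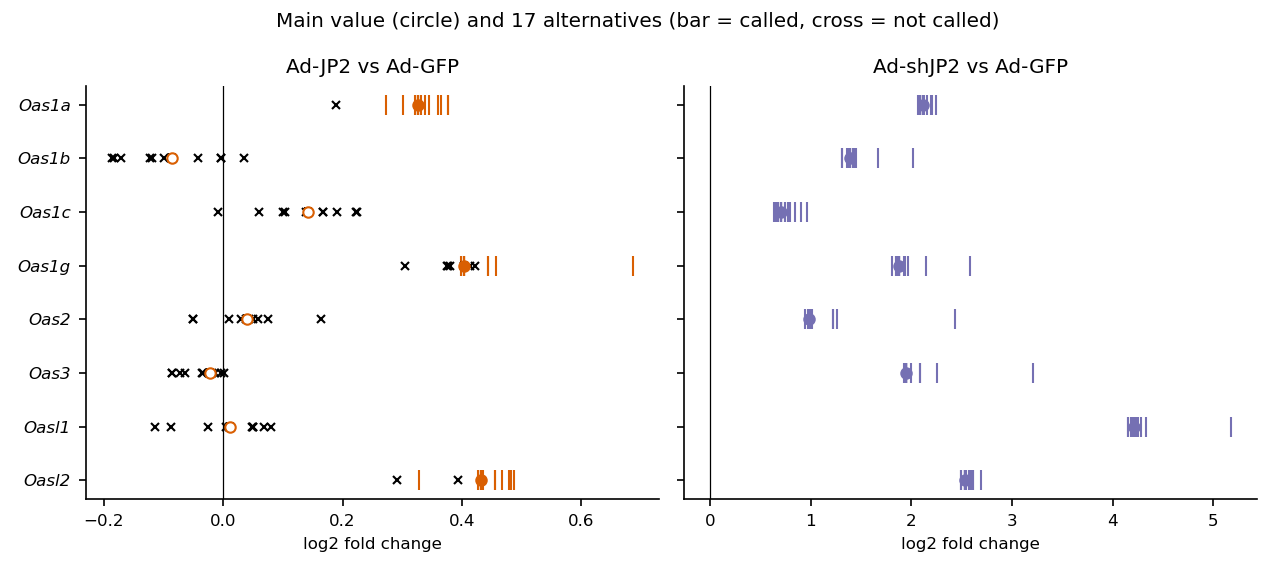
Log2 fold change against Ad-GFP of the 8 OAS genes in the fit reported (circles) and in 17 alternatives, with bars where the gene was called and crosses where it was not. In Ad-shJP2 all 8 genes stay right of 0 and called throughout, while in Ad-JP2 the calls of Oas1a, Oas1g and Oasl2 are lost in some settings.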

How the data were processed

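Per the labels' protocols, polyA RNA of infected cardiac fibroblasts was made into TruSeq Stranded mRNA libraries. DRAGEN, Salmon, DESeq2 and the build GRCm39 are listed in the submitters' processing notes, with no version or role. The authors deposited TPM per gene, beside columns of gene length and effective length. Of 56953 genes, 29601 were at 0 throughout and 14215 were tested, those that reached a TPM of 1 in 3 or more libraries. One limma 3.58.1 model (R 4.3.3) with 3 group means was fitted to log2(TPM + 1) of all 9 libraries with a mean-variance trend, a scale that understates changes of low genes. Tests were two-sided and adjusted over all tested genes, and adjusted p under 0.05 was a call. Fold values are ratios of mean TPM. An exact permutation test of 3 against 3 libraries cannot go below 0.1. TPM keeps no depth, so reads were estimated from the effective length. It gave values within 0.1 of whole reads for 95.1% of low genes in Ad-GFP replicate 3 and 42% to 63.8% in the others, too few for a count test. On simulated data for Ad-JP2 against Ad-GFP with 14215 genes, 200 of them changed, 58.2% of genes changed by 0.5 and 92.7% of those changed by 1 (log2) were called, and 3.14% of calls were false. The simulation drew independent noise for each gene, with no library differences in scaling or GC content. Its share of false calls is therefore not an estimate for the real data. The members and lists were chosen with earlier results of these data known. Genes named are all members, in each pathway list and comparison up to 3 called genes of largest change, and the 3 nearest profiles, while Jph2, Irf3, Irf5, Pde12, Ptprc, Lyz2 and other list genes were added after their values were seen. Results of some listed genes are not reported here. Promoter sequences are from RefSeq. Alternatives are given at the end.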

Additional observations from a re-analysis of the deposited data

How the results depend on the processing

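The results were recomputed with a pseudocount of 0.1, with no filter on low values, with median-of-ratios scaling, quantile normalization, a GC content and length correction, a replicate block, that block together with the correction (chosen after seeing the data), with the 2 compared groups alone, and without each of the 9 libraries in turn. Of 408 values over the 8 members and 3 comparisons, 398 kept their direction and side of the threshold, or were uncalled in both, 10 lost their call and none reversed a call. All 10 were in Ad-JP2 against Ad-GFP, and each of the 5 uncalled members there took values on both sides of 0. Quantile normalization left 0 of the 3 members called higher in Ad-JP2, and testing with no filter left 2 (the cause was not tested). Quantile normalization also moved the all-gene median of Ad-shJP2 against Ad-GFP to 0.02, against -0.12 as reported. Leaving out 1 library gave 2 to 3 members called higher in Ad-JP2 and 8 in Ad-shJP2. Same-numbered libraries did not deviate together (correlations -0.11 to 0.11), and the replicate block alone changed no member's call, with 3 higher in Ad-JP2 and 8 in Ad-shJP2. Over all genes, those called lower in Ad-JP2 numbered 233 as reported, 748 with quantile normalization, 684 with the GC and length correction and 498 with that and the block, and those called higher 1902, 1462, 1010 and 858. Higher against lower calls in Ad-shJP2 split 3093 to 5353 as reported, 3881 to 4575 with median-of-ratios scaling, 4233 to 3849 with quantile normalization and 4014 to 3871 with the correction.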
